A study of Mus musculus with 16 samples.

Results

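The angiopoietin and VEGF signalling genes and the endothelial-type surface and transcription factor genes were followed as a set of 9 named genes, Tek, Tie1, Angpt1, Kdr, Vegfa, Nrp1, Esam, Emcn and Sox18, matched by symbol among 53342 genes in the tables. All 9 were found and all 9 were among the 16482 genes with enough counts to test. The set was chosen by name, not by measured values, although earlier results of these data were known when it was chosen. RNA was sequenced in 16 samples of LSK cells from C57BL/6J mice aged 8 to 14 weeks; LSK cells are marrow cells without lineage antigens that carry Sca-1 and c-Kit, and stem cells are among them. Wild-type mice received PBS (n = 5) or 5-fluorouracil at 250 mg/kg (5-FU, an antimetabolite toxic to cycling cells; n = 3). Mice with the genotype Gata2 +9.5(Ets)-/-, in which an Ets motif in an intronic Gata2 enhancer is altered by a C-to-T change on both alleles, are called the mutant here and received PBS (n = 5) or the same 5-FU dose (n = 3). Marrow was taken 10 days after injection in every group, and the labels name no Cre or transgene.

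Each library was made from a sort of 3000 to 10000 cells, and its counts summed to between 19.37 and 28.88 (in units of 1e6). Whether replicates were separate mice is not in the labels, and the p values therefore reflect the spread between these samples, which may be technical. The gate genes Kit (95.5 CPM or more in every library) and Ly6a (114 CPM or more) were present, and the excluded lineage genes Cd3e, Cd4, Cd5 and Cd8a stayed at or below 6.35 CPM. CPM is counts per 1e6 after TMM scaling, a correction for differences in library composition. Immunoglobulin genes took a median of 31.1% of counts in wild-type PBS (range 6.37 to 44.2%), 28.9% in mutant PBS (3.67 to 50.2%), 0.21% in wild-type 5-FU (0.0392 to 0.332%) and 16.9% in mutant 5-FU (5.69 to 26.6%), and the antibody-joining chain gene Jchain had means of 23124, 22711, 44.4 and 9166 CPM in that order. The sample codes in the labels, whose meaning is not given, begin with a zero in PBS replicates 1 to 3 of both genotypes and in all mutant 5-FU libraries, and without one elsewhere. After 5-FU this writing and the genotype therefore cannot be told apart. In bulk RNA, fewer cells of a type and less RNA per cell cannot be told apart either.

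Angiopoietin-1, encoded by Angpt1, is a secreted ligand that activates the receptor tyrosine kinase TIE2, encoded by Tek, while TIE1 has no well-established ligand of its own and modulates TIE2 signalling. VEGF-A binds the receptor tyrosine kinase VEGFR2, encoded by Kdr, and neuropilin-1, encoded by Nrp1, acts as a co-receptor. ESAM is a junctional adhesion molecule and endomucin, encoded by Emcn, a sialomucin, both of which mark hematopoietic stem cells as well as vessel walls, and SOX18 is a transcription factor of developing vessels. In marrow, TIE2 with angiopoietin-1 has been linked to the quiescence of stem cells, whereas VEGFR2 is best known from sinusoidal endothelium, which regenerates after myeloablation.

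Promoter windows from RefSeq (GRCm38.p6; 250 bases before to 50 after the annotated start) were available for 6 of the 9 genes, Tek, Tie1, Kdr, Vegfa, Nrp1 and Emcn. Those of the receptor pair and of Vegfa are shown because Tek and Vegfa were the receptor and the ligand that passed the test after 5-FU in wild type, and Tie1 is the partner of Tek that did not. Capitals mark matches on either strand to GGAA, the core of Ets motifs, and to AGATAA, the kind of motif that factors such as GATA2 bind. The motifs do not overlap each other in these windows. The Tek window is chr4:94739039-94739338 (plus strand), the Tie1 window chr4:118489800-118490099 (minus strand) and the window of the upstream of the 2 Vegfa starts chr17:46032328-46032627 (minus strand). Each is printed 5′ to 3′.
Tek: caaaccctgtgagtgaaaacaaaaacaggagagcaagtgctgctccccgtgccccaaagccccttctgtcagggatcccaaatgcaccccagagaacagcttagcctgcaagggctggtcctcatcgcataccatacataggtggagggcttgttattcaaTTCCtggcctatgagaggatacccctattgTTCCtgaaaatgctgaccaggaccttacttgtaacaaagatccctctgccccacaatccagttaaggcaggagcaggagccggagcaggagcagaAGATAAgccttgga
Tie1: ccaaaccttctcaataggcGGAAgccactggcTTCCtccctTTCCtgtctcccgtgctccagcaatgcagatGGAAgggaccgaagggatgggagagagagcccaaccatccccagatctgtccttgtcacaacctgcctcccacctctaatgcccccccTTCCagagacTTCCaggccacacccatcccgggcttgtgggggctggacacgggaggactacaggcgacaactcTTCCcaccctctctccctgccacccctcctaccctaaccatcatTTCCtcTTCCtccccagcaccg
Vegfa: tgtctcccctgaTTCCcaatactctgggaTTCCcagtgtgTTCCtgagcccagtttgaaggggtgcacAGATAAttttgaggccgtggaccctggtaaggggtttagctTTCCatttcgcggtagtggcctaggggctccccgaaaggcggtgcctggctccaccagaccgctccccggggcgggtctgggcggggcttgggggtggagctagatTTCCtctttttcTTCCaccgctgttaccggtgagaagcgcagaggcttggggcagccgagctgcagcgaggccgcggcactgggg
The Tek window held 2 GGAA matches and 1 AGATAA match, the last of these near its 3′ end, the Tie1 window 9 and 0, and the Vegfa window 6 and 1. Across all 32851 windows in the table, 96% held at least 1 GGAA match, with a median of 3, and 11.2% held at least 1 AGATAA match. Among the other windows, Kdr held 5 and 0, Nrp1 5 and 0, Emcn 6 and 0, and the downstream Vegfa start 3 and 0. A match describes the letters of the window and is no evidence of binding.

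Compared per length, as CPM per kilobase of effective length, Angpt1 had the highest mean of the 9 genes in wild-type PBS, at 50.8 ± 16.2 (SD, n = 5). Esam followed at 22.9 ± 2.71, Emcn at 15.6 ± 3.69, Vegfa at 9.42 ± 7.81, Tie1 at 9.41 ± 3.13, Nrp1 at 2.85 ± 1.18, Tek at 1.94 ± 0.56, Sox18 at 1.38 ± 0.679 and Kdr at 0.392 ± 0.334. The ranges of the neighbours Emcn, Vegfa and Tie1 overlapped, as did those of Nrp1, Tek, Sox18 and, with Sox18, Kdr, whereas Angpt1, Esam and Emcn did not overlap one another. In the mutant under PBS the means of Angpt1 (48.4 ± 15.8) and Esam (35.6 ± 5.76) were within 1 SD of Angpt1 of each other, and Kdr was again lowest at 0.7 ± 0.738. After 5-FU Esam had the highest mean in both genotypes, 73.4 ± 5.82 in wild type and 99.1 ± 7.7 in the mutant (SD, n = 3), with Angpt1 next at 58.6 ± 19.8 and 53.6 ± 11.7. Tek stood at 9.76 ± 1.57 in wild type and 6.46 ± 1.71 in the mutant after 5-FU, and Kdr stayed lowest at 0.298 ± 0.182 and 0.984 ± 0.819. The effective length of Tek, an estimate that enters this scale, was 2649 bases in mutant PBS replicate 3 and at most 4522 elsewhere.

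**Figure D1:**
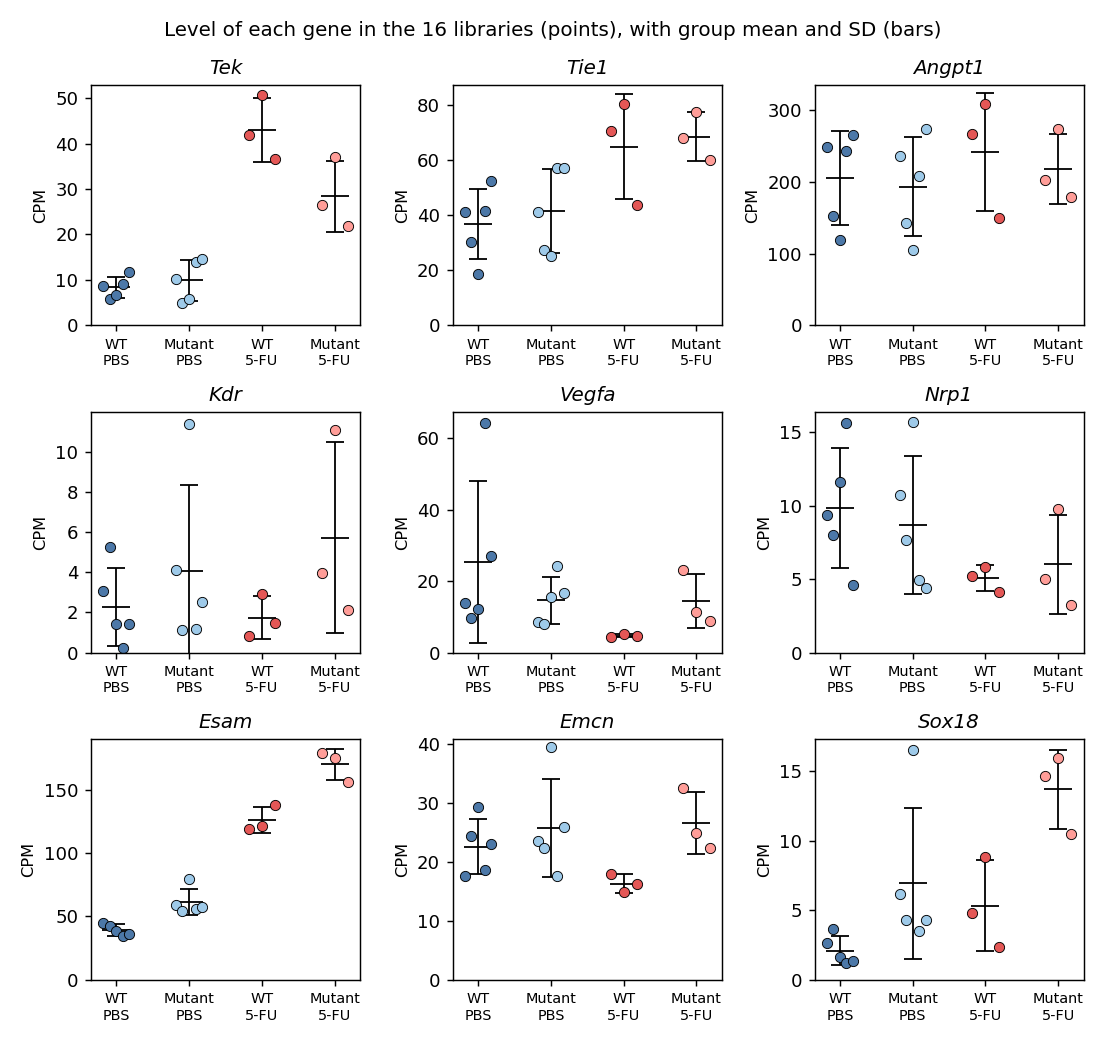
Level of each of the 9 genes in CPM (vertical axis from 0) in the 16 libraries, by group; points are libraries, the long dash is the group mean and the bars the SD (cut at 0 where they reach it). Esam and Tek in the 5-FU groups lie above every PBS library of the same genotype, whereas Angpt1 spans 105 to 308 CPM over the 16 libraries with all groups overlapping.

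After 5-FU, wild-type LSK cells held more Tek and Esam RNA and less Vegfa RNA than after PBS. Esam and Tek were also higher in the mutant after 5-FU, and Vegfa was not different there beyond its spread. By edgeR's quasi-likelihood test with adjustment over all 16482 genes, 3 of the 9 genes passed an adjusted p of 0.05 in wild type (2 rose, 1 fell), where 14.9% of all tested genes passed (5.55% higher and 9.31% lower). In the mutant 2 of the 9 passed, both higher, where 2.2% of all tested genes passed. The median log2 fold change of the 9 genes was 0.23 in wild type, against −0.11 over all tested genes, and 0.51 in the mutant, against −0.03. The groups did not overlap for 3 genes in wild type (Tek, Vegfa and Esam), where 31.8% of all tested genes did not overlap, and for 3 in the mutant (Tek, Tie1 and Esam), where 9.99% did not.

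Angpt1 (chromosome 15, 42424723 to 42676977, minus strand, GRCm38), the ligand of TIE2, did not pass in any comparison. Its levels in wild-type PBS replicates 1 to 5 were 249, 152, 119, 243 and 265 CPM, and in mutant PBS replicates 1 to 5 they were 236, 142, 105, 208 and 274 CPM. With 5-FU, wild-type replicates had 267, 308 and 149 CPM and the mutant replicates 203, 273 and 179 CPM. The range of every group thus overlapped that of each other group. The log2 fold change after 5-FU was 0.23 ± 0.34 (SE) in wild type (edgeR adjusted p = 0.628) and 0.18 ± 0.34 in the mutant (adjusted p = 0.889). Within both PBS groups the library with the largest immunoglobulin share had the lowest Angpt1. An annotated antisense gene, Gm17473, overlaps Angpt1 and reached at most 3.37 CPM; whether counting used strand is not given in the sources used here.

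Tek (chromosome 4, 94739289 to 94874976, plus strand), the TIE2 receptor gene, rose after 5-FU in both genotypes. Wild-type PBS replicates 1 to 5 had 8.59, 5.83, 6.71, 9.05 and 11.8 CPM, and wild-type 5-FU replicates 1 to 3 had 41.8, 50.6 and 36.5 CPM. Mutant PBS replicates had 10.3, 4.84, 5.72, 13.9 and 14.7 CPM, and mutant 5-FU replicates 26.5, 37 and 21.8 CPM. No 5-FU library overlapped a PBS library, and between the genotypes after 5-FU only wild-type replicate 3 and mutant replicate 2 overlapped in level. The log2 fold change was 2.35 ± 0.34 in wild type (edgeR adjusted p = 0.000676) and 1.52 ± 0.34 in the mutant (adjusted p = 0.0233). The difference between these responses, −0.83 ± 0.49, did not pass (adjusted p = 0.552), so the smaller value in the mutant was not told apart from the wild-type one.

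The level of Tek also moved with the immunoglobulin share within the PBS groups. Its highest PBS values, 11.8 and 14.7 CPM, came from the libraries with the lowest shares, 6.37% and 3.67%. When the fit included this share, the wild-type difference was 0.58 (edgeR adjusted p = 0.721) and the mutant one 1.53 (adjusted p = 0.00487); no wild-type 5-FU library has a share as high as any PBS library. Mutant 5-FU replicate 3, at a share of 5.69%, had 21.8 CPM, above every PBS library. Among mutant libraries with the code prefix 0507 (2 PBS and 3 5-FU) the difference was 1.91 (adjusted p = 0.0561). Among wild-type libraries with the prefix 715 it was 1.80, but these hold 1 5-FU library and 2 PBS libraries, so values within this prefix are given here with no p. In the mutant the call was also lost without PBS replicate 1 (1.53, adjusted p = 0.054) and without 5-FU replicate 2 (1.28, adjusted p = 0.145).

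**Figure D2:**
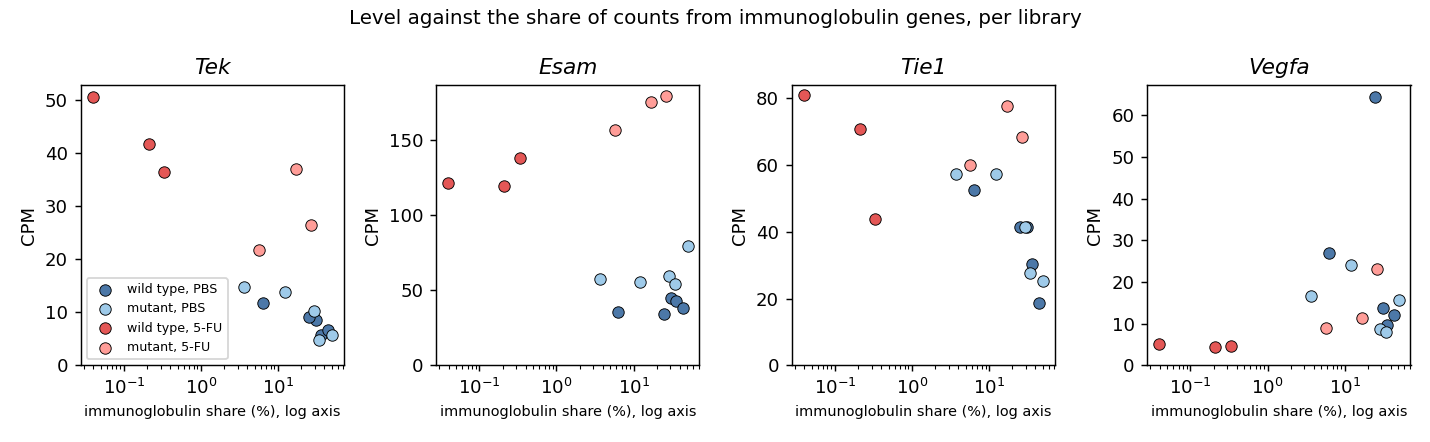
CPM of Tek, Esam, Tie1 and Vegfa (vertical axes from 0) against the immunoglobulin share of the library in percent (log axis), with 1 point per library coloured by group. Tek and Esam of the mutant 5-FU libraries lie above all PBS libraries at shares of 5.69 to 26.6%, while the Tie1 values of the PBS libraries include 57.1 CPM at 3.67%, 18.6 CPM at 44.2% and 25.3 CPM at 50.2%.

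Tie1 (chromosome 4, 118471191 to 118490061, minus strand), the partner receptor, had a smaller difference than Tek that did not pass. Wild-type PBS replicates had 41.4, 30.3, 18.6, 41.5 and 52.4 CPM and wild-type 5-FU replicates 70.7, 80.7 and 43.7 CPM. Mutant PBS replicates had 41.4, 27.5, 25.3, 57.1 and 57.1 CPM and mutant 5-FU replicates 68.3, 77.6 and 60 CPM. Wild-type 5-FU replicate 3 lay inside the PBS range, while all mutant 5-FU libraries lay above the mutant PBS ones. The log2 fold change was 0.82 ± 0.33 in wild type (edgeR adjusted p = 0.0884) and 0.72 ± 0.33 in the mutant (adjusted p = 0.355). Within the prefix 715, whose 1 wild-type 5-FU library had the lowest Tie1 of its group, it was −0.11. With the immunoglobulin share in the fit the wild-type difference was −1.07 (adjusted p = 0.533), where the 5-FU shares lay below the PBS range.

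The ratio of Tek to Tie1 counts within a library does not depend on scaling between libraries. It ran from 0.193 to 0.361 in wild-type PBS, with a median of 0.218, and from 0.176 to 0.257 in mutant PBS, with a median of 0.244. It ran from 0.591 to 0.836 in wild-type 5-FU and from 0.363 to 0.477 in mutant 5-FU. Every 5-FU library thus had a higher ratio than every PBS library, and every wild-type 5-FU library a higher one than every mutant 5-FU library; this ratio was chosen after values were seen and was not tested.

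Vegfa (chromosome 17, 46016993 to 46032369, minus strand), the VEGF-A ligand gene, fell in wild type after 5-FU. Wild-type PBS replicates 1 to 5 had 13.9, 9.71, 12.1, 64.3 and 27 CPM, and the 5-FU replicates had 4.4, 5.24 and 4.67 CPM. Mutant PBS replicates had 8.69, 8.06, 15.7, 24.2 and 16.6 CPM, and mutant 5-FU replicates 23.2, 11.4 and 8.93 CPM. The wild-type 5-FU libraries were the lowest 3 of all 16, and PBS replicates 4 and 5 of wild type, whose codes have no leading zero, were the highest of their group. The log2 fold change was −2.41 ± 0.61 in wild type (edgeR adjusted p = 0.0173) and −0.02 ± 0.54 in the mutant (adjusted p = 0.973), and the difference between these responses, 2.39 ± 0.78, did not pass (adjusted p = 0.225).

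The wild-type fall of Vegfa was not called when any 1 of the 3 wild-type 5-FU libraries was left out, with adjusted p values of 0.0767, 0.0791 and 0.0569 at changes of −2.36, −2.49 and −2.40. Within the prefix 715, which holds 1 5-FU library and the 2 PBS libraries with the highest Vegfa, the difference was −3.29. With the immunoglobulin share in the fit it was −3.19 (edgeR adjusted p = 0.483), where the wild-type 5-FU shares lay below the PBS range. With the writing of the code as a covariate it was −2.99 (adjusted p = 0.000735), and the difference between genotypes in the response was then 3.61 (adjusted p = 0.0196). The writing varied only within the PBS groups and coincided with genotype after 5-FU. Its effect was thus taken from PBS libraries, and the response value cannot separate genotype from writing.

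The VEGF receptor genes were low and did not pass in either genotype. Kdr (chromosome 5, 75932827 to 75978458, minus strand) lay between 0.224 and 5.26 CPM in wild-type PBS and between 0.82 and 2.9 CPM in wild-type 5-FU, a log2 difference of −0.39 ± 0.88 (edgeR adjusted p = 0.766). In the mutant it lay between 1.14 and 11.4 CPM under PBS and between 2.1 and 11.1 CPM after 5-FU, a difference of 0.51 ± 0.85 (adjusted p = 0.871). These Kdr values rest on 6 to 351 counts per library. Nrp1 (chromosome 8, 128358604 to 128503363, plus strand), the co-receptor, lay between 4.59 and 15.6 CPM in wild-type PBS and between 4.1 and 5.83 CPM in wild-type 5-FU, with a difference of −0.96 ± 0.47 (adjusted p = 0.151). In the mutant Nrp1 went from 4.37 to 15.7 CPM under PBS and from 3.25 to 9.77 CPM after 5-FU, with a difference of −0.52 ± 0.47 (adjusted p = 0.734). All of these groups overlapped.

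Esam (chromosome 9, 37528078 to 37538319, plus strand), the junctional adhesion molecule, rose after 5-FU in both genotypes and had the smallest relative spread between replicates of the 9 genes in each group. Wild-type PBS replicates had 44.9, 42.6, 38.2, 34.3 and 35.8 CPM and wild-type 5-FU replicates 119, 121 and 138 CPM. Mutant PBS replicates had 59.1, 54.3, 79.4, 55.7 and 57.7 CPM and mutant 5-FU replicates 179, 175 and 156 CPM. The 4 groups did not overlap at all, and the PBS groups lay below the 5-FU groups, with the mutant above wild type in each treatment. The log2 fold change after 5-FU was 1.69 ± 0.16 in wild type (edgeR adjusted p = 2.08e-05) and 1.47 ± 0.16 in the mutant (adjusted p = 0.000117), with a difference between responses of −0.21 ± 0.23 (adjusted p = 0.723). Within the mutant prefix 0507 (2 PBS and 3 5-FU libraries) the change was 1.59 (adjusted p = 0.00797), and within the wild-type prefix 715, with its 1 5-FU library, 1.98. Esam still passed with the immunoglobulin share in the fit, at 2.20 in wild type (adjusted p = 0.0203) and 1.51 in the mutant (adjusted p = 4.09e-05). The wild-type 5-FU shares all lay below the PBS range, so the wild-type fit cannot separate share from treatment.

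Emcn (chromosome 3, 137341067 to 137432185, plus strand), the other surface protein of stem cells and vessels, did not follow Esam. It ran from 17.6 to 29.2 CPM in wild-type PBS and from 14.8 to 17.9 CPM in wild-type 5-FU, a log2 difference of −0.47 ± 0.25 (edgeR adjusted p = 0.178). In the mutant it ran from 17.5 to 39.5 CPM under PBS and from 22.3 to 32.5 CPM after 5-FU, a difference of 0.05 ± 0.25 (adjusted p = 0.965). The ratio of Esam to Emcn counts ran from 1.31 to 2.55 in wild-type PBS, 2.01 to 3.18 in mutant PBS, 6.65 to 8.57 in wild-type 5-FU and 5.5 to 7.04 in mutant 5-FU, with no overlap between PBS and 5-FU libraries; it too was chosen after values were seen.

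Sox18 (chromosome 2, 181669836 to 181671640, minus strand), the transcription factor gene, was low in wild-type PBS, at 2.65, 3.64, 1.63, 1.2 and 1.35 CPM. It had 4.8, 8.83 and 2.36 CPM in wild-type 5-FU, 6.14, 4.26, 16.5, 3.5 and 4.29 CPM in mutant PBS, and 14.6, 15.9 and 10.5 CPM in mutant 5-FU. Wild-type 5-FU replicate 3 lay within the wild-type PBS range, and mutant PBS replicate 3 lay above all 3 mutant 5-FU libraries. The difference after 5-FU was 1.36 ± 0.53 in wild type (edgeR adjusted p = 0.0828) and 0.99 ± 0.52 in the mutant (adjusted p = 0.455).

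**Figure D3:**
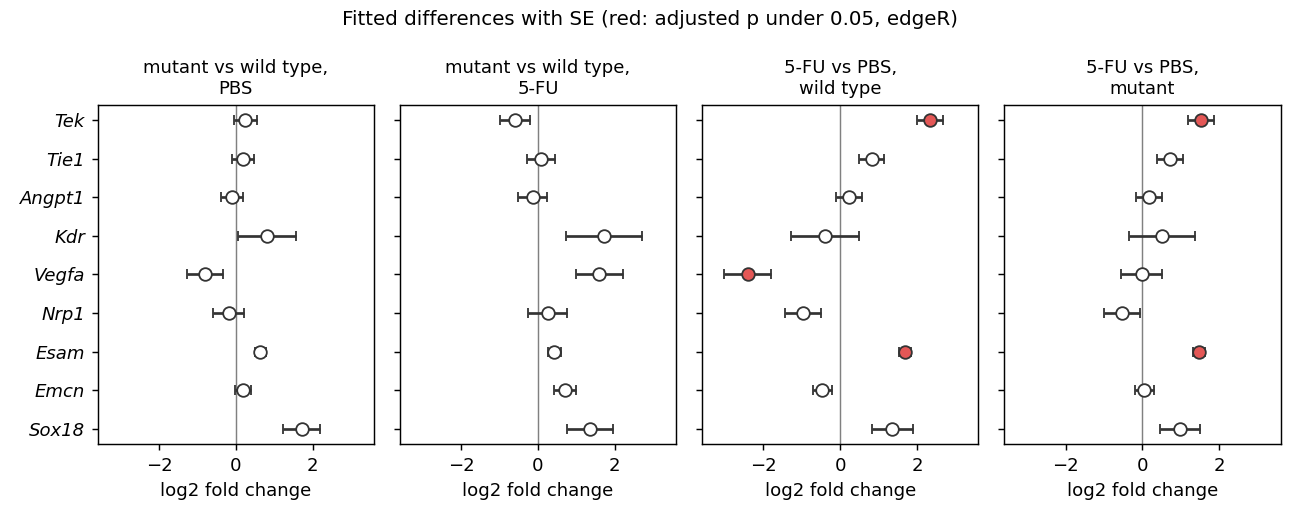
Fitted log2 fold change (horizontal axis) with its SE for the 9 genes in 4 comparisons, from the edgeR fit over all 16 libraries; red points have an adjusted p under 0.05. The 5 red points are Tek, Vegfa and Esam in wild type after 5-FU and Tek and Esam in the mutant after 5-FU, and neither comparison of genotypes has one.

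Between genotypes none of the 9 genes passed, under PBS or after 5-FU. Under PBS edgeR's quasi-likelihood test called 0 of 9, where 0.0182% of all tested genes passed; 2 of the 9 had an unadjusted p under 0.05, where 3.28% of all tested genes did. DESeq2 called 1 (Esam, 0.65, adjusted p = 0.0159), and limma-voom with sample weights and limma-trend on TPM called 0. In CPM, Esam was higher in 5 of 5 mutant libraries than in any wild-type one. Its log2 difference was 0.64 ± 0.14 (edgeR adjusted p = 0.758, unadjusted p = 0.000322). It was the only 1 of the 9 whose PBS groups did not overlap in CPM, where 0.625% of all tested genes did not. In TPM its PBS groups overlapped. Sox18 had the other low unadjusted p (0.00243), with a difference of 1.72 ± 0.48 (adjusted p = 1) and an overlap at 1 mutant library, replicate 4.

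The other genes differed less between genotypes under PBS relative to their errors. Vegfa differed by −0.80 ± 0.47, and by −0.09 without wild-type PBS replicate 4, the library at 64.3 CPM (adjusted p = 1 in both). Kdr differed by 0.82 ± 0.76, Tek by 0.24 ± 0.30, Tie1 by 0.18 ± 0.29, Angpt1 by −0.09 ± 0.29, Nrp1 by −0.19 ± 0.40 and Emcn by 0.19 ± 0.21, all with an edgeR adjusted p of 1 as well. The median over the 9 genes was 0.19, and over all tested genes −0.02.

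After 5-FU 0 of 9 passed between genotypes by edgeR's quasi-likelihood test, where 1.95% of all tested genes passed (1.49% higher and 0.461% lower in the mutant); 4 had an unadjusted p under 0.05, where 18.4% did. DESeq2 and limma-trend called 0 and limma-voom with sample weights 6. The share of all tested genes that limma-voom called is not given here, so its 6 cannot be set against the edgeR shares. Over the whole table the alternatives other than leaving out a replicate passed 0 to 5100 genes in this comparison. In CPM the groups did not overlap for Vegfa, Esam, Emcn and Sox18, all higher in the mutant. At 4 of 9 this is close to the 39.4% of all tested genes that did not overlap. In TPM Esam was lower in every mutant library (95 to 136) than in every wild-type one (155 to 173). Emcn and Sox18 overlapped in TPM, and Vegfa did not. The log2 differences were 1.60 ± 0.62 for Vegfa (edgeR adjusted p = 0.191), 0.43 ± 0.18 for Esam (adjusted p = 0.223), 0.71 ± 0.28 for Emcn (adjusted p = 0.192) and 1.35 ± 0.60 for Sox18 (adjusted p = 0.241). Kdr differed by 1.72 ± 0.99 (adjusted p = 0.35) and Tek by −0.60 ± 0.38 (adjusted p = 0.4). Nrp1 at 0.25 ± 0.51, Tie1 at 0.08 ± 0.37 and Angpt1 at −0.14 ± 0.38 were within 1 SE of 0. With the immunoglobulin share in the fit the difference was −0.03 for Esam (adjusted p = 0.985), 0.07 for Emcn (adjusted p = 0.97) and 0.21 for Sox18 (adjusted p = 0.96). The shares of the genotypes did not overlap after 5-FU (0.0392 to 0.332% in wild type, 5.69 to 26.6% in the mutant). This fit therefore cannot separate share from genotype there.

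For the difference between genotypes in the response to 5-FU, 0 of 9 passed, where 0.589% of all tested genes passed (0.558% higher and 0.0303% lower). By edgeR 1 of the 9, Vegfa, had an unadjusted p under 0.05 (0.0074), where 10.8% of all tested genes did, and DESeq2, limma-voom and limma-trend called 0. For Tie1, Angpt1, Kdr, Nrp1, Emcn and Sox18 the differences lay between −0.37 and 0.90, with edgeR adjusted p values from 0.599 to 0.973. The 4 comparisons share their groups, so the values of a gene in them are not independent of each other.

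Genes that mark endothelial cells, other than the 9, moved with several of these values. Of the 17 endothelial marker genes in the tables, 11 were higher in every mutant 5-FU library than in every wild-type 5-FU library. Adgrl4, a receptor gene, was the 1 lower in every mutant 5-FU library than in every wild-type one. In this comparison 39.4% of all tested genes did not overlap. Summed over the 17, the level ran from 243 to 574 CPM in wild-type PBS, 364 to 544 in mutant PBS, 752 to 1358 in wild-type 5-FU and 511 to 767 in mutant 5-FU. Adgrl4 was the largest part of that sum in every library but mutant PBS replicate 3, where it gave 138 of 530 CPM. Without it the sums, taken after its values were seen, ran from 31.6 to 78.3, 35.9 to 391, 23 to 23.7 and 74.7 to 143 CPM. Sox7 was at 0 in every wild-type PBS library, Sox17 and Lyve1 in every wild-type 5-FU library, and Lyve1 in every mutant 5-FU library.

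By edgeR, 2 of 15 tested markers passed between genotypes after 5-FU, both higher in the mutant, Stab2, a scavenger receptor gene of sinusoids, by 5.41 ± 0.97 (adjusted p = 0.0124) and the apelin receptor gene Aplnr, at 0.0253 against 6.04 CPM on average. Of all tested genes 1.95% passed in that comparison. There 12 of the 15 had an unadjusted p under 0.05, where 18.4% of all tested genes did, and the median log2 difference of the 15 was 3.36. DESeq2 called 6, limma-voom 12 and limma-trend 5, whose shares over all tested genes are not given here. After 5-FU in wild type 2 of 15 fell, Stab2 by −3.84 ± 0.88 (edgeR adjusted p = 0.0115) and Mmrn2, and 1 rose, Adgrl4 by 1.41 ± 0.39 (edgeR adjusted p = 0.0263). Of all tested genes 9.31% fell and 5.55% rose there. An unadjusted p under 0.05 was seen for 7 of the 15, near the 36.9% of all tested genes. DESeq2, limma-voom and limma-trend called 6, 5 and 1. By edgeR 0 passed in the mutant after 5-FU or under PBS. There 1 and 4 were at an unadjusted p under 0.05, where 13.1% and 3.28% of all tested genes were. DESeq2 called 0 in both, limma-voom 2 and 0, and limma-trend 1 and 0. VE-cadherin, encoded by Cdh5, stood at 0.0607, 0.0266 and 0.228 CPM in the wild-type 5-FU libraries and at 0.865, 2 and 0.364 CPM in the mutant 5-FU ones. The claudin gene Cldn5 had 0.121, 0.0532 and 0.228 CPM in the former and 4.09, 7.45 and 2.22 CPM in the latter. Other genes of this list were not near 0 in the wild-type 5-FU libraries, and which cells held their RNA was not tested. There Adgrl4 had a mean of 1076 CPM, Robo4, a guidance receptor gene, ran from 11.2 to 14.6 CPM and Plvap, a gene of endothelial diaphragms, from 3.7 to 5.78 CPM. The part of endothelial RNA in the values of Tek and Esam after 5-FU, and in the mutant values of Emcn, Sox18 and Kdr, was not tested.

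In mutant PBS replicate 3, 11 of the 17 markers were at their highest of the PBS libraries. Its sum over the 17, 530 CPM, was inside the range of the others, and its sum without Adgrl4, 391 CPM, was the highest. It had 8.72 CPM of Cdh5, 28.2 of Cldn5, 62 of Plvap, 28.9 of Stab2 and 179 of the fatty acid-binding protein gene Fabp4, and also the largest immunoglobulin share, 50.2%. Kdr (11.4 CPM), Esam (79.4 CPM), Sox18 (16.5 CPM) and Emcn (39.5 CPM) were highest of the PBS libraries there too. So was Nrp1, narrowly (15.7 CPM, against 15.6 in wild-type PBS replicate 4), whereas Angpt1 was lowest (105 CPM). Without this library the differences between genotypes under PBS were 0.56 for Esam (edgeR adjusted p = 0.68), 1.15 for Sox18 (adjusted p = 0.899), 0.02 for Emcn (adjusted p = 0.988) and 0.00 for Kdr (adjusted p = 1).

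**Figure D4:**
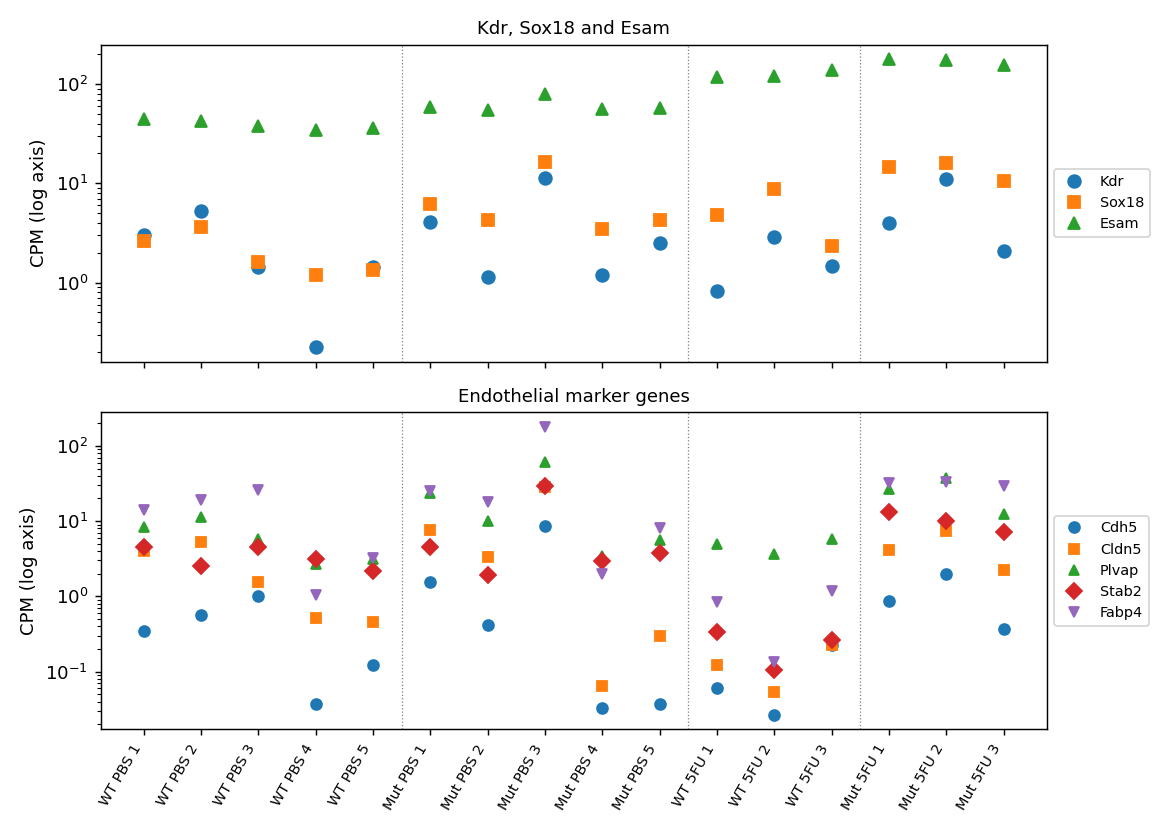
CPM (log axis) in each of the 16 libraries, grouped by dotted lines: Kdr, Sox18 and Esam above, 5 endothelial marker genes below. Mutant PBS replicate 3 is highest of the PBS libraries in all 8 genes, and the wild-type 5-FU libraries have the lowest Stab2 values while their Esam stands at 119 to 138 CPM.

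Of the other genes of the angiopoietin pathway, 13 of 14 were tested; Angpt4 was at 0 in every library. After 5-FU in wild type, where 9.31% of all tested genes fell and 5.55% rose, 2 of the 13 fell and 0 rose, with a median of 0.01. They were Klf2, a transcription factor gene that responds to flow in vessels, which went from 42.9 to 1.79 CPM on average (−4.60 ± 0.98, edgeR adjusted p = 0.00891), and the adaptor gene Grb7, from 1.29 to 0.0481 CPM. Klf2 ranged from 5.45 to 97.9 CPM within wild-type PBS. By edgeR 0 of the 13 passed in the mutant after 5-FU, between genotypes under PBS, between genotypes after 5-FU or for the difference in response. In these 4 comparisons 3, 0, 7 and 4 were at an unadjusted p under 0.05, where 13.1%, 3.28%, 18.4% and 10.8% of all tested genes were. In that order DESeq2 called 1, 0, 3 and 1, limma-voom 2, 0, 6 and 3, and limma-trend 0 in each. The nearest in each were Dok2, an adaptor recruited by TIE2, in the mutant after 5-FU (0.96 ± 0.25, adjusted p = 0.0543), Angpt2, the context-dependent ligand, between genotypes under PBS (−1.53 ± 0.78, adjusted p = 1), Klf2 between genotypes after 5-FU (3.39 ± 0.96, adjusted p = 0.0888) and Angpt2 for the difference in response (4.30 ± 1.29, adjusted p = 0.169). Angpt2 had a mean of 0.493, 0.161, 0.0861 and 0.627 CPM in the 4 groups (wild type then mutant, PBS first).

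In the VEGF and neuropilin list 18 of 21 were tested. After 5-FU in wild type 1 fell, Sema3d, a semaphorin ligand gene, from 8.22 to 1.04 CPM (−2.97 ± 0.90, edgeR adjusted p = 0.0375), and 0 rose, with a median of −0.64. In the same 4 other comparisons 0 of 18 passed, with 4, 1, 7 and 3 at an unadjusted p under 0.05, against the same shares of all tested genes as above. DESeq2 called 0, 0, 2 and 0, limma-voom 2, 0, 9 and 0, and limma-trend 1, 0, 1 and 0. The nearest were Plxna1, a plexin receptor gene, in the mutant (0.86 ± 0.33, adjusted p = 0.247), Flt4, encoding VEGFR3, between genotypes under PBS (1.92 ± 0.84, adjusted p = 1), and the VEGFR3 ligand gene Vegfc between genotypes after 5-FU (0.88 ± 0.29, adjusted p = 0.131) and for the response (0.83 ± 0.37, adjusted p = 0.412).

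Endothelial genes that stem cells or megakaryocytes also transcribe included rises after 5-FU in both genotypes. Of 14 tested 5 rose and 0 fell in wild type, among them Vwf, encoding von Willebrand factor, from 7.48 to 50.9 CPM (2.76 ± 0.42, edgeR adjusted p = 0.000872), and Pecam1 from 41.2 to 86.2 CPM (1.06 ± 0.27, adjusted p = 0.0197). In the mutant 2 rose, Vwf and the junction gene Jam2, and 1 fell, Cd34 from 634 to 214 CPM (−1.57 ± 0.35, adjusted p = 0.0269), and between genotypes after 5-FU Cd34 was lower in the mutant. Of 9 tested genes for junction and surface neighbours of ESAM 3 rose in wild type, among them Podxl, encoding podocalyxin (2.97 ± 0.39, adjusted p = 0.000365), and Tjp1, encoding ZO-1 (3.92 ± 0.62, adjusted p = 0.00119). In the mutant 2 of the 9 rose, Podxl (2.07 ± 0.38, edgeR adjusted p = 0.00779) and Jam2, and 1 fell, Cd34, which is also in the previous list. Over all tested genes 5.55% rose and 9.31% fell in wild type, and 0.837% rose and 1.36% fell in the mutant. Between genotypes after 5-FU 0.461% were lower in the mutant.

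The genes whose pattern over the 16 libraries was closest to each of the 9 were found by the root mean square difference of centred log2(CPM + 0.5) among 10023 genes with a mean of at least 5 CPM. For Tek they were Col4a2 (0.26), Arhgap29 (0.27) and Col4a1 (0.27), at a spread of Tek itself of 1.05 (SD). For Esam they were Casp12, Gch1 and Pbx3 (each 0.31, spread 0.83), and for Tie1 Lonp2 (0.17), Prkch and Irf2bpl (each 0.21, spread 0.59). Angpt1 was closest to Surf6 (0.18), Elac1 and Ubap1, Emcn to C1d and Rhebl1 (each 0.17) and Fopnl, and Nrp1 to Itgal (0.32), Man1b1 and Txndc11. Vegfa at 0.50 (Gbp9, Gbp8, Sik1) and Sox18 at 0.60 (Plpp3, Nectin2, Bok) had no gene as close, and Kdr, with a mean of 3.39 CPM, was below the level required. Among the 9 themselves, Tie1 and Angpt1 were the nearest pair (0.35), closer than Tek and Tie1 (0.63) or Tek and Esam (0.64). The distance is not scaled to spread, so genes that vary little lie close whatever their pattern. Tie1 and Angpt1 had spreads of 0.59 and 0.46, Emcn 0.36, Vegfa 0.95 and Sox18 1.06. The libraries share treatment, genotype and composition, so these distances describe the 16 libraries only.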

How the data were processed

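The authors deposited 1 table per sample. Per the file headers it holds the RSEM expected count, an estimated count that is not scaled to depth, and TPM, scaled to 1e6 transcripts. RSEM 1.3.1, FastQC 0.11.2 and the mm10/GRCm38 genome are named per the submitters' processing notes; annotation release and strand setting: not given in the sources used here. Libraries used the NuGEN Ovation Ultralow kit, per the labels.

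Expected counts were rounded. Genes were filtered with filterByExpr of edgeR 4.0.16 (minimum count 10, R 4.3.3), and 16482 remained. TMM factors ran from 0.508 to 1.37, and edgeR's quasi-likelihood F test (robust, 1 mean per group, all 16 samples) gave 5 comparisons, with Benjamini-Hochberg adjustment over all tested genes and a threshold of 0.05. The SE was taken as the absolute log2 fold change over the root of F. Alternatives were other scalings, no filter, DESeq2 1.42.0, limma 3.58.1 (voom with sample weights, and limma-trend on log2(TPM + 0.5)), the compared groups alone, a replicate block, code writing, code prefix or immunoglobulin share, and each replicate left out. The script was tested on simulated data. No 2 libraries of 120 pairs held identical counts.

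Between the PBS groups, same-numbered libraries deviated together (correlations of 0.165, 0.243, 0.494, 0.342 and 0.569). Correlations between libraries of different numbers were not computed, so these values cannot show that the numbers pair samples. The immunoglobulin shares of both PBS groups also ran in the same order by number. They were highest in replicate 3 (44.2 and 50.2%) and lowest in replicate 5 (6.37 and 3.67%). The labels do not say what a number shares. Elsewhere the same-numbered correlations ran from −0.158 to 0.168.

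Coordinates are those of GENCODE M21 (GRCm38), counted from 1; 53237 of 53342 gene IDs were found there. The 9 genes and all lists (angiopoietin and TIE, VEGF and neuropilin, endothelial, endothelial genes shared with stem cells, junction, stem cell, megakaryocyte, stroma, plasma and B cell, monocyte, T and NK cell, plasmacytoid dendritic cell) were chosen with earlier results of these data known. The 9 genes were named in every comparison. From the 2 pathway lists, genes past the threshold, up to 4 by smallest p, were named, or the 1 with the smallest p where none passed; from other lists up to 2 past the threshold. The genes closest in pattern were the 3 with the smallest distance, passing over immunoglobulin genes, predicted models, Xist and Y-linked genes.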

Additional observations from a re-analysis of the deposited data

Results flagged for a closer look

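Of 18 gene and group combinations checked (the 9 genes in both PBS groups), 3 had a library far from the other 4, with a gap over range above the 95% critical value of 0.71 for 5 samples; chance flags about 1 in 20 such groups. All 3 were in mutant PBS replicate 3. Kdr stood at 11.4 CPM there, with a gap of 0.712 of the range. Esam stood at 79.4 CPM, with a gap of 0.81. Sox18 stood at 16.5 CPM, with a gap of 0.796. That library also had the lowest TMM factor, 0.508, and the highest levels of 11 of 17 endothelial markers among the PBS libraries, and their part in these values was not tested.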

How the results depend on the processing

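Over 741 recomputed log2 fold changes of single genes, 651 kept their direction and their side of the threshold, 13 lost a call, 21 gained one and 56 changed sign, none of the last in a called value. No sign changed with RLE scaling or with scaling without immunoglobulin genes. Esam passed in all 19 alternatives in wild type after 5-FU (1.60 to 3.14) and in 18 of 19 in the mutant, the exception being limma-trend on TPM (1.97, adjusted p = 0.109). Tek passed in 18 of 19 in wild type and in 14 of 19 in the mutant, where the compared groups alone gave 1.50 (adjusted p = 0.12) and limma-trend 1.66 (adjusted p = 0.413), and Vegfa passed in 13 of 19 in wild type, where limma-trend gave −0.72 (adjusted p = 0.421). The wild-type counts include the fit within the prefix 715, whose single 5-FU library is assumed to vary like its 2 PBS libraries, and which is no check of a call.

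The number of the 9 genes past the threshold became 1 under PBS with DESeq2. Between genotypes after 5-FU it was 1 with the compared groups alone, the replicate block or code writing, and 6 with limma-voom. After 5-FU in wild type it was 1 with the immunoglobulin share and 5 with limma-voom. In the mutant it was 1 with the compared groups alone or within a prefix, 0 with limma-trend, and 1 to 2 leaving out a replicate. For the difference in response it was 1 with the replicate block or code writing. The limma-voom counts of 6 and 5 are given without its share over all tested genes. Whether the numbers pair any samples is not known. After 5-FU the edgeR fit with the replicate block called Vegfa between genotypes (1.54, adjusted p = 0.0253) and for the response (2.05, adjusted p = 0.0402). It also called Tie1 after 5-FU in wild type (1.17, adjusted p = 0.00069) and the mutant (1.12, adjusted p = 0.00523), and changed no other call of the 9. The cause was not tested for any of these.

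Signs of uncalled values changed as follows. In wild type after 5-FU, and between genotypes after 5-FU, the compared groups did not overlap in immunoglobulin share. Code writing coincided with genotype after 5-FU. Fits with these covariates cannot separate them from group in those comparisons. With the immunoglobulin share, between genotypes after 5-FU, Tek was 1.05, Angpt1 1.45, Kdr −0.20, Nrp1 −1.89 and Esam −0.03; in wild type after 5-FU Tie1 was −1.07, Angpt1 −1.49, Kdr 1.73, Nrp1 1.42 and Emcn 0.24; the Tek response differed by 0.95. With code writing, between genotypes after 5-FU, Tek was 0.21, Angpt1 0.42, Kdr −0.04 and Nrp1 −0.33; in wild type Angpt1 was −0.08 and Kdr 0.92; in the mutant Kdr was −0.02, Vegfa 0.62 and Emcn −0.06; the Tek response differed by 0.03. With limma-trend, Angpt1 was 0.02 under PBS; between genotypes after 5-FU Tie1 was −0.77, Nrp1 −0.65, Esam −0.47 and Emcn −0.09; in wild type Kdr was 0.53, Nrp1 0.52 and Emcn 0.95; in the mutant Vegfa was 0.38 and Nrp1 0.02. With the replicate block in the mutant Kdr was −0.40, Vegfa 0.58 and Emcn −0.02. Within a prefix, in wild type Tie1 was −0.11, Angpt1 −0.77 and Kdr 0.81, and in the mutant Vegfa 0.79. Leaving out a replicate, values ran under PBS from −0.25 to 0.09 for Angpt1 and −0.48 to 0.05 for Nrp1. Between genotypes after 5-FU they ran from −0.14 to 0.26 for Tie1, −0.40 to 0.07 for Angpt1 and −0.29 to 0.55 for Nrp1. In wild type they ran from −0.98 to 0.18 for Kdr, and in the mutant from −0.02 to 0.34 for Angpt1, −0.41 to 1.34 for Kdr, −0.53 to 0.24 for Vegfa and −0.12 to 0.23 for Emcn.

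Genes past the threshold over the whole table numbered 3 under PBS (0 to 25 over the alternatives other than leaving out a replicate), 321 between genotypes after 5-FU (0 to 5100), 2450 in wild type after 5-FU (22 to 7318), 362 in the mutant (147 to 1556) and 97 for the difference in response (0 to 723). Leaving out a replicate gave 1 to 4, 17 to 206, 562 to 3233, 158 to 390 and 10 to 306. A count of 3 came to between 0.0798 and 0.272 CPM, so depth limits Kdr and Sox18 most.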

Other observations

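Stem cell-associated and platelet genes that were not described above also passed after 5-FU. In a list of 14 stem cell genes 4 rose in wild type, among them Slamf1, encoding CD150, from 4.56 to 39.5 CPM (3.11 ± 0.23, edgeR adjusted p = 2.17e-06), and Gata2 itself from 73.8 to 207 CPM (1.48 ± 0.33, adjusted p = 0.0103), and 2 rose in the mutant, Slamf1 and Ctnnal1. Under PBS 1 of the 14, Slamf1, was higher in the mutant (1.93 ± 0.21, adjusted p = 0.000945). Of 11 tested megakaryocyte genes 5 rose in wild type, led by Selp, encoding P-selectin, from 11.5 to 237 CPM (4.36 ± 0.26, adjusted p = 1.62e-07), and 2 in the mutant, Selp (2.28 ± 0.24, adjusted p = 0.000117) and Vwf. Under PBS Selp was higher in the mutant (1.58 ± 0.22, edgeR adjusted p = 0.011), and its response to 5-FU was smaller there (−2.09 ± 0.35, edgeR adjusted p = 0.0141). Over all tested genes 5.55% rose in wild type after 5-FU and 0.837% in the mutant, and 0.0182% were higher in the mutant under PBS.

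Genes of other cell types were counted by edgeR in the same fit. After 5-FU in wild type 11 of 11 plasma and B cell genes, 4 of 9 monocyte and macrophage genes, 7 of 8 tested T and NK cell genes and 3 of 5 tested plasmacytoid dendritic cell genes fell, and 0 of 5 tested stromal genes passed. After 5-FU in the mutant 1 of these genes passed, Siglech of the plasmacytoid dendritic list, which was lower. Between genotypes after 5-FU 9 plasma and B cell, 1 monocyte, 4 T and NK cell and 1 plasmacytoid dendritic cell genes were higher in the mutant. Among stromal genes Pdgfrb was lower, at 2.91 against 22.7 CPM (−2.96 ± 0.67, adjusted p = 0.0339). The stromal median was 2.24, and other stromal genes did not pass. Cxcl12 (2.24 ± 1.41), Lepr (5.42 ± 1.77) and Adipoq (3.96 ± 1.97) had higher values in the mutant, and Col1a2 stood at −0.31 ± 0.90. For the difference in response 4, 1, 4 and 1 of these 4 blood cell lists passed, all in the direction of higher values in the mutant. Under PBS none of these genes passed. Over all tested genes 9.31% fell in wild type and 1.36% in the mutant after 5-FU. Between genotypes after 5-FU 1.49% were higher in the mutant, and for the difference in response 0.558% were.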
